A study of Mus musculus with 4 samples.

Results

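The 9 genes that encode the Aurora kinases, the chromosomal passenger complex, Plk1 and their activators were followed through mouse oocyte maturation with and without tubastatin A (TubA), an inhibitor sold as selective for the tubulin deacetylase HDAC6. They were chosen by name for what their proteins do, and all 9 were found among the 21957 genes of the table. They are Aurka, Aurkb and Aurkc, the kinases, with Incenp, Birc5 and Cdca8, the other subunits of the passenger complex, and Plk1, Tpx2 and Bora. RNA-seq was run on 4 libraries of oocytes from female Hybrid B6D2F1 (C57BL/6 x DBA) mice aged 6 to 8 weeks, with no added allele or transgene in any group. The GV library held untreated oocytes at the germinal vesicle stage, arrested in prophase of meiosis I. The MII library held untreated oocytes cultured for 12 h to the second metaphase and collected with a polar body, although the sample title calls it an embryo. The TubA-10 and TubA-20 libraries held oocytes cultured for 12 h in 10 or 20 µM TubA, the doses in the sample titles. A second label field gives 20 µM for TubA-10 and 11 µM for TubA-20. A polar body is stated as a condition for the MII oocytes alone. In every comparison of a TubA library with MII, the drug, the meiotic stage reached and this selection therefore cannot be told apart. The methods describe donors injected with pregnant mare serum gonadotropin, and TubA dissolved in DMSO. No DMSO control is named, so TubA and its solvent cannot be told apart. Each library is described as a pool of 100 oocytes. Each group was 1 library, so no value below has a replicate error and no test between groups was possible. A difference is the log2 ratio of (FPKM + 1) between 2 libraries, and a gene is counted as past 2-fold where this ratio lies beyond 1 in either direction. FPKM are fragments scaled to transcript length and to the mapped fragments of the library, so levels of different genes in 1 library can be set side by side.

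The passenger complex carries an Aurora kinase, held by the scaffold INCENP and placed by survivin (Birc5) and borealin (Cdca8), to the inner centromere, where it releases wrongly attached microtubules, and later to the midzone, where it serves cytokinesis. Most somatic cells use Aurora B in it. Oocytes also have Aurora C, a germ cell paralogue that takes much of that work in meiosis. Aurora A acts at the spindle poles, where TPX2 binds and activates it, and Bora lets Aurora A activate Plk1, the Polo-like kinase of mitotic and meiotic entry. Fully grown oocytes are transcriptionally silent and mature on stored mRNA, some of which is given a longer poly(A) tail through cytoplasmic polyadenylation elements in its 3′ UTR.

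The activation loop is shown first because the 3 Aurora kinases are so alike that reads have to tell them apart. The coding bases below run from the DFG motif to the PPE motif in the principal GENCODE M21 transcript on GRCm38, 5′ to 3′ on the coding strand, and each stretch spans an intron in the genome. Capitals mark the bases that differ from Aurkc. The stretches lie within chr7:7000093-7002399 (plus strand) for Aurkc, chr11:69048845-69050344 (plus strand) for Aurkb and chr2:172357213-172359789 (minus strand) for Aurka.
Aurkc: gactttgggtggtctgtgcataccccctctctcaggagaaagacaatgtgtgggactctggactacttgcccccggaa
Aurkb: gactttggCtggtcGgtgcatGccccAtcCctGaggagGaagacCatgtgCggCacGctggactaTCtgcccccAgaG
Aurka: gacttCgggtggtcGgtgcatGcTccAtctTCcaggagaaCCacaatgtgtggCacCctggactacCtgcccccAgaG
Of the 78 bases, Aurkb differed from Aurkc at 15 (80.8% identity) and Aurka at 14 (82.1%), and the longest run of bases that Aurkc shared with either was 11. None of the 100-base windows of Aurka or Aurkb was found in a transcript of another gene, so a full read of 100 bases from either matches no other gene's transcript exactly. Aurkc is different. Of its 1055 windows of 100 bases, 62.4% also occur in transcripts of other genes, 57.3% in the processed pseudogene Gm12463 and 5.02% in the unprocessed pseudogene Gm6909. The methods state Cufflinks with default options beyond the strand setting, by which a read placed at several loci is divided among them. Neither pseudogene was matched to an entry of the table, so their own levels were not analysed here, and the Aurkc level is uncertain throughout. Among the other members, 3.62% of the windows of Plk1 were shared, 2.81% with Gm44985, which overlaps it on the opposite strand, and 0.81% with the pseudogene Plk-ps1. The remaining members shared none.

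The 3′ ends of the Aurora mRNAs are shown because tail lengthening is directed from there. The last 150 bases of each member's 3′ UTR were searched on the sense strand for the cytoplasmic polyadenylation elements TTTTAT and TTTTAAT. The match is in capitals within 28 bases of 3′ UTR.
Aurka: taaaggctattTTTTATgttggagttct
Aurkb: gaagaacaacaTTTTATaataaagtctt
Aurkc: cttgttttctcTTTTATgaagtgatgtt
These windows are chr2:172356238-172356265 (minus strand), chr11:69051617-69051644 (plus strand) and chr7:7003037-7003064 (plus strand) on GRCm38. The match starts 59 bases before the annotated 3′ end in Aurka, 37 in Aurkb and 44 in Aurkc. All 3 Aurora kinases held 1 match, and none of the other 6 members held either motif in this window. Over the 20380 genes with a usable 3′ end, 21.7% held one, and 27.3% of the 5471 of them with a mean of at least 10 FPKM did, so 3 of 9 is near that share. A match is a description of letters, and polyadenylation was not measured. The libraries were made from RNA selected by its poly(A) tail, so a longer tail and more mRNA cannot be told apart in the levels below.

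All 9 members were expressed in all 4 libraries, over a wide range of levels that the libraries shared. Coordinates below are those of the gene on GRCm38 in GENCODE M21. Birc5 was the most abundant in every library and the lowest was Aurkb in GV and MII and Bora in both TubA libraries. Over the mean of the 4 libraries the order was Birc5 (1501 FPKM), Aurkc (655), Cdca8 (462), Plk1 (155), Tpx2 (100.003), Aurka (94.8), Incenp (60.3), Bora (21.3) and Aurkb (20.2). With 1 library a group the spread behind these means is across conditions. Neighbours whose ranges over the 4 libraries overlapped were Aurkc and Cdca8, Tpx2 and Aurka, and Bora and Aurkb. Among all genes Birc5 ranked between place 24 and place 67, Aurkc between 83 and 206, and Aurkb between 3458 and 4765.

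**Figure D1:**
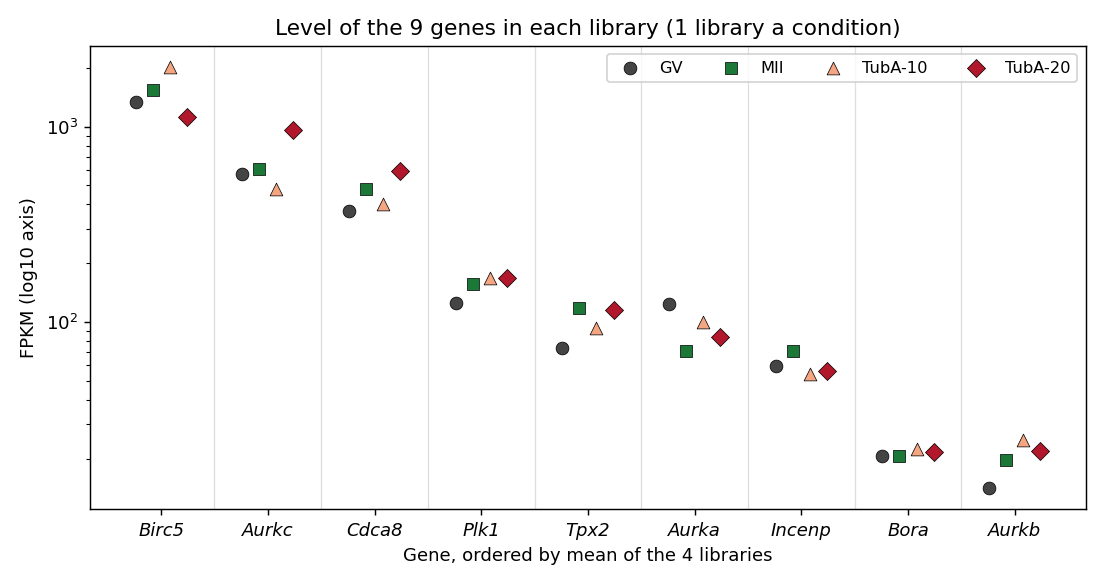
FPKM of the 9 genes in the 4 libraries on a log axis, 1 point per library and no error bars because each group was 1 library. Birc5, Aurkc and Cdca8 lie at 372 FPKM or more in every library and Aurkb and Bora at 24.9 or less, and the highest point of a gene is at most 2.01 times its lowest.

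Aurkc (chr7:6995300-7003091, plus strand), the germ cell kinase, was the most abundant Aurora transcript in every condition. Aurkc was measured at 569 FPKM in GV and 609 in MII, with 480 in TubA-10 against 963 in TubA-20. TubA-20 stands above the other 3, and TubA-10 is the lowest. Against MII the Aurkc difference was 0.66 in TubA-20 and -0.34 in TubA-10, so the 2 TubA libraries lay on opposite sides of the MII library. Between the doses the Aurkc difference was 1.003, just past the 2-fold line and the only one of the 54 member differences that was. The FPKM were also rescaled in 4 other ways, by the median gene, the FPKM sums, the upper quartiles or Gapdh, each set equal between the libraries. Over these scalings it ran from 0.81 to 1.07, and the difference between TubA-20 and MII from 0.50 to 0.69. Between MII and GV it was 0.10, and -0.05 once the median gene was set to no change. The reads Aurkc can share with its pseudogenes bear on each of these values, and their part was not tested.

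Aurkb (chr11:69045647-69051664, plus strand), the mitotic kinase of the passenger complex, was low throughout. Its level was 14.1 FPKM in GV and 19.7 in MII, with 24.9 in TubA-10 against 21.9 in TubA-20. GV is the lowest and TubA-10 the highest. The Aurkb difference from GV was 0.45 in MII and 0.60 in TubA-20. For TubA-10 it was 0.78, with 0.62 to 1.04 over the scalings and past 2-fold with Gapdh set equal. Relative to MII, TubA-10 differed by 0.32 and TubA-20 by 0.15, or by -0.01 with Gapdh set equal. By a rough estimate, Aurkb rested on about 250 fragments in GV and 310 in TubA-20, a counting error of 6.3% and 5.7%. The estimate uses the FPKM that 1 fragment gives, found apart from the relative depths given below, and it implies somewhat different depths.

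Aurka (chr2:172356190-172370535, minus strand), the spindle pole kinase, was the one Aurora that was highest before culture. It stood at 123 FPKM in GV and 71.5 in MII, with 101 in TubA-10 against 83.9 in TubA-20. The lowest level is in MII, and both TubA libraries lie between MII and GV. The Aurka difference between MII and GV was -0.78, with a range from -0.92 to -0.55 over the scalings. Relative to MII it was 0.49 at 10 µM TubA and 0.23 at 20 µM.

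The make-up of the Aurora transcripts follows from these levels. The FPKM of the 3 kinases summed to 707 in GV and 701 in MII, with 605 in TubA-10 against 1069 in TubA-20. Aurkc made up 80.6% of that sum in GV and 87.0% in MII, with 79.3% in TubA-10 against 90.1% in TubA-20. Aurka made up 17.4%, 10.2%, 16.6% and 7.85% in the same order. Aurkb never passed 4.12%, its share in TubA-10. In the shares of Aurkc and Aurka, TubA-10 lay beside GV and TubA-20 beyond MII. The Aurkb share had another order, at 1.997% in GV, 2.05% in TubA-20 and 2.81% in MII. Shares and ratios within 1 library do not depend on how libraries are scaled, but they do carry the uncertainty of Aurkc.

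Birc5 (chr11:117849251-117855743, plus strand) encodes survivin, which reads a phosphorylated histone mark at centromeres. It was measured at 1331 FPKM in GV and 1537 in MII, with 2020.0 in TubA-10 against 1116 in TubA-20. The highest and the lowest level are those of the TubA libraries, with both untreated libraries between. The Birc5 difference from MII was 0.39 at 10 µM TubA and -0.46 at 20 µM, the reverse of the order seen for Aurkc. Between TubA-20 and TubA-10 it was -0.86, with a range from -1.05 to -0.78 over the scalings.

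Cdca8 (chr4:124918465-124939311, minus strand) encodes borealin, which binds nucleosomes and shugoshin beside survivin. Its level was 372 FPKM in GV and 480 in MII, with 403 in TubA-10 against 593 in TubA-20. GV is the lowest and TubA-20 the highest. The Cdca8 difference from GV was 0.37 in MII and 0.67 in TubA-20, and 0.12 in TubA-10, where it turned to -0.04 with the median gene set to no change. Relative to MII it was -0.25 at 10 µM TubA and 0.31 at 20 µM.

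Incenp (chr19:9872296-9899551, minus strand), the scaffold that binds and activates the Aurora kinase, stood at 59.8 FPKM in GV and 71.0 in MII, with 53.9 in TubA-10 against 56.5 in TubA-20. MII is the highest and the other 3 lie within a few FPKM of each other. The Incenp difference from MII was -0.39 at 10 µM TubA and -0.33 at 20 µM. Between the doses it was 0.07, and -0.13 with Gapdh set equal. Another annotated gene, AC132253.8, overlaps Incenp on the same strand, and how reads in the overlap were assigned was not examined.

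The proportions of the subunit transcripts differed between the libraries. The ratio of Birc5 to Cdca8 was 3.58 in GV and 3.20 in MII, with 5.01 in TubA-10 against 1.88 in TubA-20. The ratio of Birc5 to Aurkc was 2.34, 2.52, 4.21 and 1.16 in the same order. In both ratios the untreated libraries lie close together, TubA-10 lies above them and TubA-20 below. The ratio of Birc5 to Incenp was 22.3 in GV and 21.6 in MII, with 37.5 in TubA-10 against 19.8 in TubA-20. There TubA-10 again lies above, but TubA-20 lies near the untreated libraries. The ratio of Birc5 to Cdca8 uses no Aurkc reads. The ratio of Aurkc to Incenp was 9.53 in GV and 8.58 in MII, with 8.90 in TubA-10 against 17.0 in TubA-20. The ratio of Aurkc to Aurkb lay between 19.3 at 10 µM TubA and 44.0 at 20 µM, with 40.3 in GV and 30.9 in MII. With no replicates, how far such ratios differ between oocyte pools of 1 group is unknown.

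**Figure D2:**
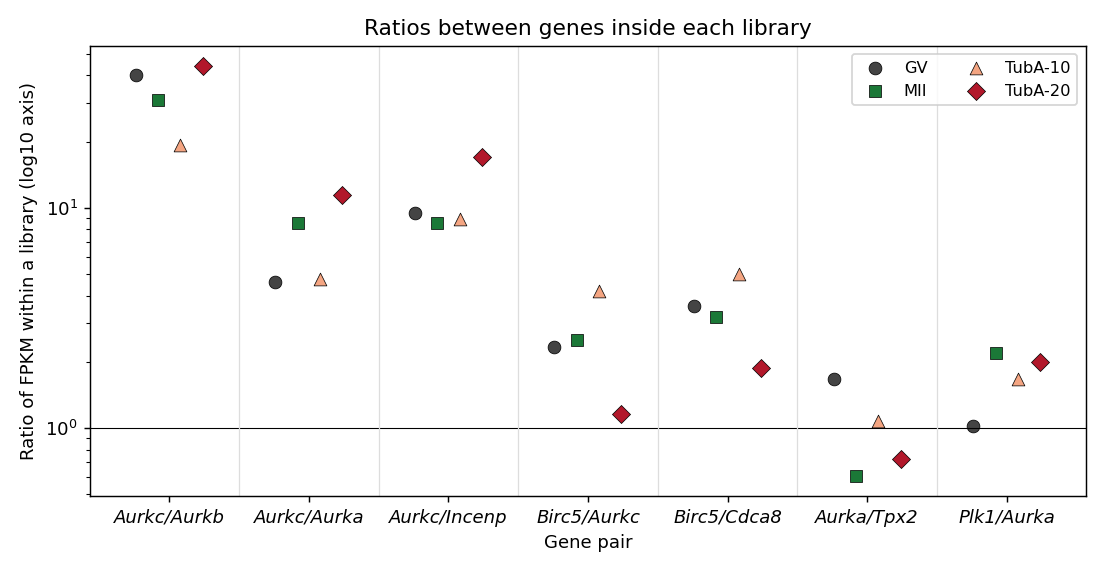
Ratios of FPKM between pairs of member genes within each library on a log axis, 1 point per library. The ratios of Birc5 to Aurkc and of Birc5 to Cdca8 are highest in TubA-10 and lowest in TubA-20, and the ratio of Aurkc to Incenp is 17.0 in TubA-20 and between 8.58 and 9.53 in the other 3.

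Plk1 (chr7:122159439-122169873, plus strand), which drives meiotic resumption and spindle assembly, stood at 126 FPKM in GV and 157 in MII, with 169 in TubA-10 against 167 in TubA-20. GV is the lowest, and the cultured libraries were nearly level. The Plk1 difference from GV was 0.32 for MII and, under TubA, 0.42 at 10 µM and 0.41 at 20 µM. Relative to MII it was 0.10 at 10 µM TubA and 0.09 at 20 µM, the latter becoming -0.07 with Gapdh set equal.

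Tpx2 (chr2:152847964-152895321, plus strand), the microtubule-bound activator of Aurora A, was measured at 73.8 FPKM in GV and 118 in MII, with 93.0 in TubA-10 against 116 in TubA-20. MII and TubA-20 were alike, and TubA-10 lay between them and GV. The Tpx2 difference from GV was 0.67 in MII, with a range from 0.52 to 0.89 over the scalings, 0.33 at 10 µM TubA and 0.64 at 20 µM. The ratio of Aurka to Tpx2 was 1.67 in GV and 0.608 in MII, with 1.08 in TubA-10 against 0.726 in TubA-20.

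Bora (chr14:99046222-99074540, plus strand), the cofactor through which Aurora A activates Plk1, varied least of the 9. It stood at 20.7 FPKM in GV and 20.7 in MII, with 22.3 in TubA-10 against 21.6 in TubA-20. Its highest level was 1.08 times its lowest, against 1.32 for Incenp, 1.34 for Plk1 and 2.01 for Aurkc. The 3 Bora differences from GV were 0.00 for MII and, under TubA, 0.10 at 10 µM and 0.06 at 20 µM, and all 3 were below 0 (-0.14, -0.05 and -0.16) with the median gene set to no change. The ratio of Plk1 to Bora was 6.08 in GV and 7.60, 7.58 and 7.76 in MII, TubA-10 and TubA-20.

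The counts of members past 2-fold were read against the share of all genes past it. None of the 9 was past 2-fold between MII and GV, where 11.4% of all genes and 28.8% of the 5546 genes with a mean of at least 10 FPKM were. None was past it between TubA-10 and GV (6.34% and 14.7%) or between TubA-20 and GV (19.3% and 48.0%). Against MII none was past it in TubA-10 (0.642% and 1.46%) or in TubA-20 (2.77% and 7.23%). Between TubA-20 and TubA-10, 1 of 9 was, Aurkc, against 6.18% and 16.2%. With 9 genes, the shares of 1.46% and 7.23% leave less than 1 gene to be counted, and shares of 14.7% and 16.2% between 1 and 2, so the counts in those 4 comparisons say little about the members. Every member has a mean above 10 FPKM, so the second share is the closer background.

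The size of the differences is given by the median of their absolute values. Between TubA-20 and GV it was 0.55 over the 9 members and 0.97 over the 5546 genes, and between MII and GV 0.32 and 0.72. Between TubA-10 and GV it was 0.29 and 0.52, and between TubA-20 and TubA-10 it was 0.26 and 0.49. Against MII it was 0.23 and 0.31 in TubA-20 but 0.33 and 0.26 in TubA-10, so only there was the median of the members above that of the genes. The signed medians for members and genes were 0.25 and 0.22 between MII and GV, 0.41 and 0.37 between TubA-20 and GV, and 0.09 and 0.07 between TubA-20 and MII. They lay further apart in the other 3 comparisons, at 0.12 and 0.23 between TubA-10 and GV, 0.10 and 0.00 between TubA-10 and MII, and -0.01 and 0.13 between TubA-20 and TubA-10. By rank, 79 of the 5546 genes (1.42%) lay higher than Aurkc between TubA-20 and TubA-10, and 255 (4.6%) between TubA-20 and MII. For Birc5, 1000 genes (18.0%) lay lower between TubA-20 and TubA-10. Comparisons that share a library are not independent, and 3 of the 6 share GV.

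**Figure D3:**
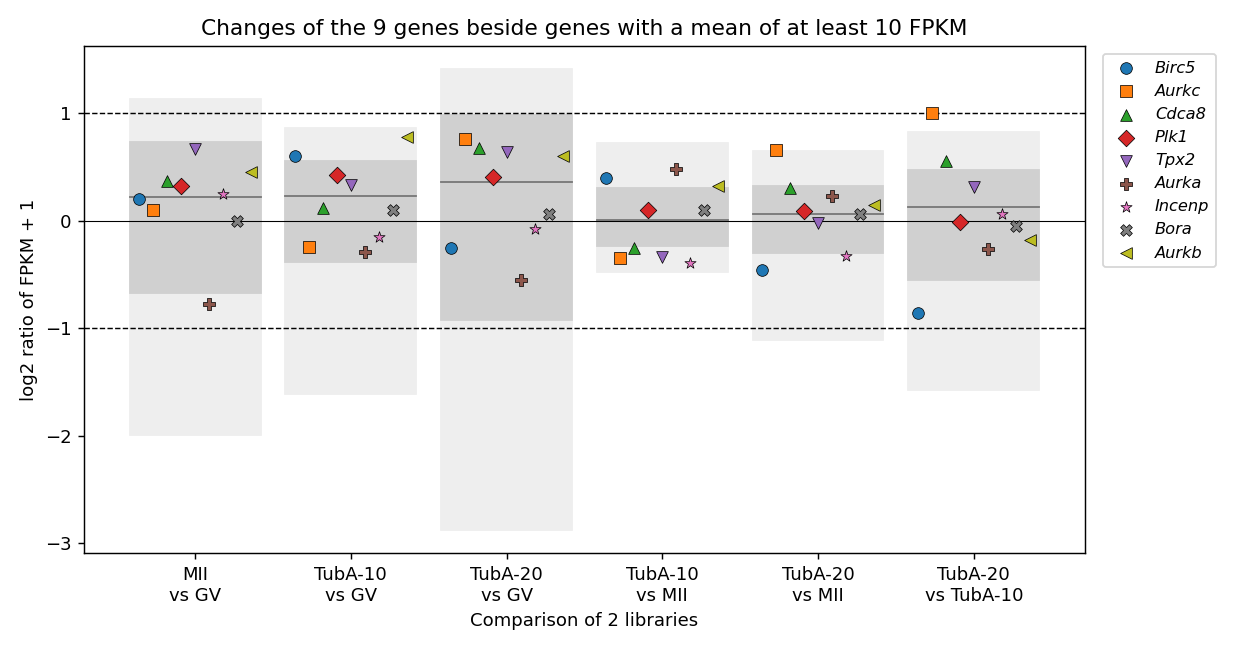
The log2 ratio of (FPKM + 1) of each of the 9 genes in the 6 comparisons between libraries, with dashed lines at 2-fold. Grey marks the genes with a mean of at least 10 FPKM, dark from their 25% to their 75% quantile around a median line and light from 5% to 95%. Aurkc between TubA-20 and TubA-10, at 1.003, sits on the 2-fold line, and the other 53 values lie inside it.

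Around these kinases, 43 further genes were taken in 6 lists by what they do. Between TubA-20 and MII, 0 of the 43 were more than 2-fold higher and 2 were lower, with a median difference of -0.04. Over all genes 0.328% were higher and 2.44% lower, and over the genes with a mean of at least 10 FPKM 0.379% and 6.85%. Of the 43 partners 33 reach that mean, and in each of the 6 comparisons every partner counted as past 2-fold is one of those 33. Aurkaip1, whose product promotes Aurora A turnover and is also found in mitochondrial ribosomes, stood at 238 FPKM in GV and 56.9 in MII, with 81.7 in TubA-10 against 24.8 in TubA-20, a difference of -1.16 between TubA-20 and MII. Fzr1 encodes Cdh1, the activator of the anaphase-promoting complex that marks Aurora kinases and Plk1 for destruction and holds GV arrest. Its level was 63.6 FPKM in GV and 50.3 in MII, with 70.2 in TubA-10 against 23.1 in TubA-20. TubA-20 stands apart for Fzr1, with a difference of -1.09 from MII and -1.56 from TubA-10. Both genes stayed past 2-fold against MII under all 4 scalings.

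The 8 genes listed under recruitment of the passenger complex, the haspin, shugoshin and Bub1 branch among them, had 0 members past 2-fold between TubA-20 and MII. They ran from Bub1 at -0.17 to Sgo1 at 0.30. The 4 other Polo-like kinases had 0, from Plk2 at -0.17 to Plk3 at 0.24. Of the 43 genes 6 stayed under 5 FPKM in every library, and at a pseudocount of 1 FPKM the lowest could hardly pass 2-fold. Plk5 was at 0 in MII and TubA-20, Plk2 at 1.64 and 1.35 FPKM, and the Aurora A partners Ajuba and Nek9, named after their values were seen, at no more than 0.131 FPKM in either. Of the 10 Aurora A partners 1 was lower, Aurkaip1, and the highest was the spindle motor Kif11 at 0.11, which fell below 0 under 2 of the 4 scalings. The 8 midzone and microtubule genes had 0, from the microtubule depolymerase Kif2c at -0.30 to the centralspindlin subunit Racgap1 at 0.39. The 8 genes of opposing phosphatases had 0, from Ppp6r1 at -0.34 to Ppp1cb, a catalytic subunit of PP1, at 0.55. Of the 5 turnover genes 1 was lower, Fzr1, and the F-box gene Fbxw11 was highest at 0.28.

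Between MII and GV, 4 of the 43 were more than 2-fold higher and 3 lower, with a median of 0.26. The higher count reached 9 with equal FPKM sums or equal Gapdh, and the lower count 4 with the median gene set to no change. All shares of genes given here are for the FPKM as deposited, and none was computed under the other scalings. Over all genes 3.05% were higher and 8.34% lower, and over the genes with a mean of at least 10 FPKM 9.90% and 19.0%. The 4 higher genes were Cdca2, which brings PP1 to chromatin (22.4 to 51.5 FPKM), the centriole kinase Plk4 (85.7 to 200.3), the RhoA activator Ect2 (42.98 to 96.5) and the myosin phosphatase subunit Ppp1r12a, which also opposes Plk1 (74.6 to 197). The lower genes were Aurkaip1 at -2.04, the Aurora A substrate Tacc3 at -1.40 (861 to 326 FPKM) and the F-box gene Btrc at -1.29 (35.1 to 13.8). Tacc3 was named after its values were seen. Between TubA-20 and GV, 8 were higher and 5 lower, beside 7.61% and 11.7% of all genes and 24.0% in each direction of those with that mean, and the higher count was 4 with the median gene set to no change. Between TubA-10 and GV 1 was higher and 3 lower, beside 0.742% and 5.60% of all genes and 1.95% and 12.7% of those with that mean. With Gapdh set equal 6 were higher and 1 lower, without a share of all genes at that scaling. Between TubA-10 and MII 0 were past 2-fold in either direction, beside 0.642% of all genes and 1.46% of those with that mean. Between TubA-20 and TubA-10, 0 were higher and 3 lower, beside 0.660% and 5.52% of all genes and 1.46% and 14.7% of those with that mean. These were Aurkaip1 at -1.68, Fzr1 at -1.56 and Btrc at -1.38.

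**Figure D4:**
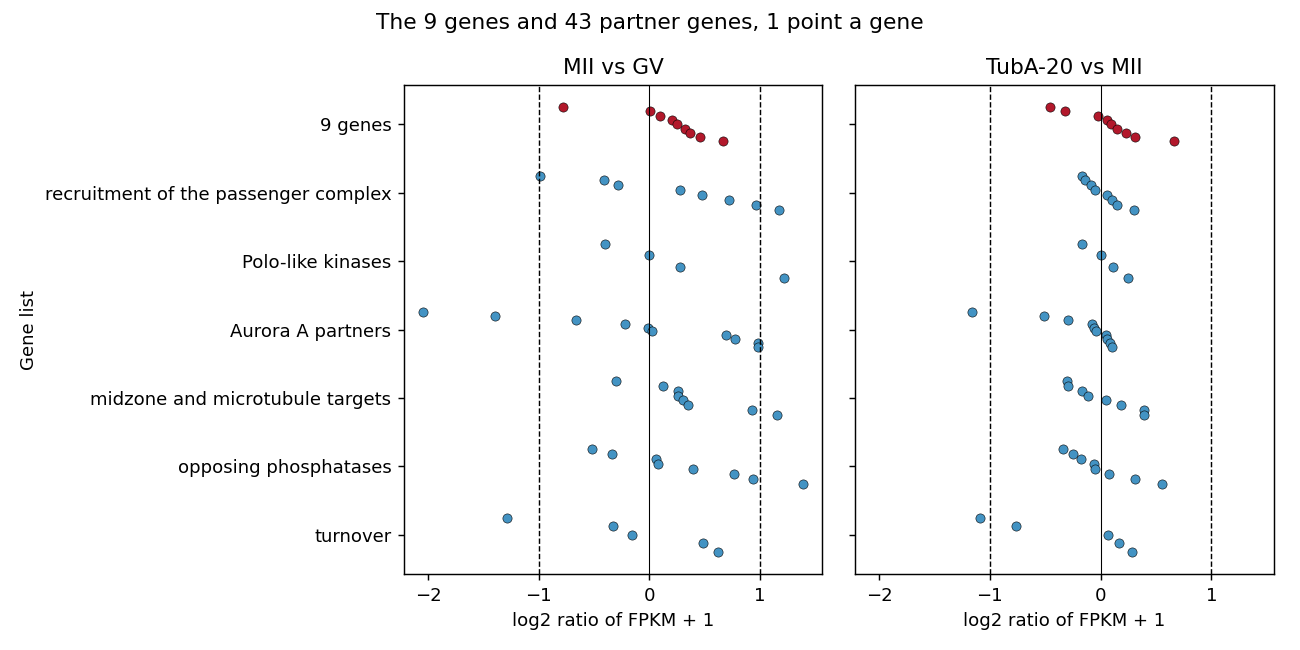
The log2 ratio of (FPKM + 1) of the 9 genes (red) and the 43 partner genes (blue) by list, between MII and GV and between TubA-20 and MII, 1 point per gene, with dashed lines at 2-fold. Between TubA-20 and MII only Aurkaip1 and Fzr1 lie beyond the 2-fold lines.

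The genes whose pattern over the 4 libraries was most like that of 4 members were found among the 7897 genes with at least 5 FPKM in 1 library, by the Euclidean distance of mean-centred log2(FPKM + 1). For Aurka the nearest were Dap3 (distance 0.0484), Vbp1 and Pgk1. Dap3 stood at 352 FPKM in GV and 205 in MII, with 282 in TubA-10 against 247 in TubA-20, the same order of libraries as Aurka. For Aurkb they were Man1a (0.0402), Nde1 and Rfc5, and for Plk1 Atp2a2 (0.0334), Sod2 and Slc25a32. For Aurkc they were Bri3 (0.101), Snx27 (0.101) and the oocyte gene Oosp3 (0.111), which went from 1585 FPKM in TubA-10 to 3002 in TubA-20. Within a distance of 0.3 lay 858 genes for Plk1, 328 for Aurkb, 192 for Aurka and 99 for Aurkc. With only 4 points per gene such likeness is a description.

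A few properties of the libraries bear on all of these values. All 12 oocyte marker genes were above 0 in every library. Their sum was highest in TubA-20, at 14710 FPKM against 11070 to 13060 in the other 3. This rested on Oosp1, at 6213 FPKM there against 2700.0 to 3521. Without Oosp1 the sum of the other oocyte markers was higher in MII than in TubA-20. The lowest marker stood at 12.4 FPKM in TubA-20 against 41.9 to 90.5. TubA-20 was also the highest library for Aurkc, and the part of these marker differences in the Aurkc result was not tested. The 12 cumulus and granulosa markers summed to 18.7 FPKM in GV and 13.7 in MII, with 10.4 in TubA-10 against 17.2 in TubA-20, with 7 to 10 of them above 0 and Foxl2 at 0 in all. The markers differed in direction, with Inha at 7.50 FPKM in GV and 0.239 to 0.314 in the cultured libraries, and Cyp19a1 at 6.14 in GV and 7.42 to 10.3 in the others. TubA-10 had the lowest sum and also the lowest Aurkc and the highest Birc5, and the part of such cells in the results was not tested. In such bulk samples fewer cells of a type and less RNA per cell cannot be told apart. From the steps in the lowest FPKM, depth relative to GV was estimated as 1.64 for MII and, under TubA, 1.68 at 10 µM and 0.893 at 20 µM. These are rough, above all for MII and TubA-10. Of the genes near the step, and not of all genes used, 23.6%, 30.1% and 81.0% in the same order lay within 0.03 log2 of it. In the scaling by the median gene, the FPKM were multiplied by 0.905 for MII and, under TubA, by 0.895 at 10 µM and 0.855 at 20 µM. Over the genes behind that scaling, the median difference from GV as deposited was 0.13, 0.14 and 0.19 in the same order. These medians are not those over the 5546 genes with a mean of at least 10 FPKM, which were 0.22, 0.23 and 0.37. Of the 54 member differences, 40 kept their sign under all 4 scalings. Hdac6 itself, the named target of TubA, stood at 4.44 FPKM in GV and 3.74 in MII, with 2.998 in TubA-10 against 1.86 in TubA-20.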

How the data were processed

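The values are FPKM, which the authors computed with Cufflinks (first-strand setting, mm10) and deposited as a single table, so transcript length and library size had been divided out beforehand. The submitters' processing notes also name STAR 2.5.0 and Cuffdiff 2.2.1. Of 21959 entries, which bear Ensembl identifiers although the methods speak of a UCSC model, 21794 matched a symbol in GENCODE M21, and summing those with a common symbol gave 21957 genes. Columns were mapped by sample title. The FPKM were used as deposited, with a pseudocount of 1 FPKM and no filter on low values, and with 1 library a group no p-value was computed. The scalings compared set equal, in turn, the median gene, the FPKM sums, the upper quartiles or Gapdh. Depth was estimated from steps between 0.001 and 0.15 FPKM. Sequence searches used the principal transcript of each gene. Partner genes were named if past 2-fold between TubA-20 and MII, between MII and GV or between the doses. Those highest or lowest of their list between TubA-20 and MII were named too. Plk5, Ajuba and Nek9 were named for their low levels. The highest and lowest genes of each list in other comparisons were not all named. An example is Ttk, the lowest recruitment gene between TubA-20 and GV at -1.13. The 3 nearest genes of 4 members were named. The members, lists and rules were chosen with earlier results of these data known. Scripts were tested on simulated data (Python 3.11.15, numpy 2.4.6, pandas 2.3.3, Biopython 1.88, matplotlib 3.10.9).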

Additional observations from a re-analysis of the deposited data

How the results depend on the processing

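The counts of members past 2-fold depended on the scaling in 2 comparisons. Between TubA-20 and TubA-10 the count of higher members went from 1 to 0 with the median gene set to no change (Aurkc at 0.94), with equal FPKM sums (0.92), with equal Gapdh (0.81) and at a 3-fold threshold. Equal Gapdh gave 1 lower member there (Birc5 at -1.05) and 1 higher member between TubA-10 and GV (Aurkb at 1.04). At a 1.5-fold threshold 1 member was higher and 1 lower between MII and GV. At that threshold 2 were higher between TubA-10 and GV, 4 between TubA-20 and GV and 1 between TubA-20 and MII. Between TubA-20 and TubA-10, 1 was lower. No share of all genes past 1.5-fold was computed, so these counts were not read against other genes. Of 324 member differences recomputed, 319 stayed on their side of 2-fold, 2 passed it and 3 no longer did. The count of higher partner genes went from 4 to 9 between MII and GV with equal FPKM sums or Gapdh, from 1 to 6 between TubA-10 and GV with equal Gapdh (lower from 3 to 1) and to 0 with the median gene set to no change, and from 8 to 4 between TubA-20 and GV with that median setting. The cause was not tested, and the share of all genes past 2-fold was not computed under these scalings. Leaving out a replicate was not possible with 1 library a group. No paired analysis was possible because each group was 1 library. Depth is an estimate from the FPKM alone and limits Aurkb and Bora most.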
